A study of Mus musculus with 48 samples.

Results

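The proteasome subunits were taken as all array probes whose RefSeq accession maps to a gene symbol beginning with *Psma*, *Psmb*, *Psmc*, *Psmd* or *Psme* and a digit. This gave 63 probes of 45 genes, out of 41174 probes and 18434 named genes on the array. Of these, 43 genes encode proteasome subunits, activators or assembly chaperones, and 2 match by name only. The latter are *Psmc3ip*, a partner of the meiotic recombination machinery, and *Psme3ip1*, an interactor of PA28 gamma. The immunoproteasome genes *Psmb8*, *Psmb9*, *Psmb10*, *Psme1* and *Psme2* (7 probes) were also followed on their own.

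RNA came from liver and colon of C57/BL6 mice aged 12 weeks, offspring of dams fed a diet sufficient (H) or marginally deficient (L) in selenium (Se) and folate. Sufficient here names diet H, which the paper describes as supplemented, with Se and folate above the recommended requirement. In the group names HH, HL, LH and LL, the first letter is the diet of the dam through pregnancy and lactation and the second letter is the diet of the pups after weaning. HH mice therefore received the sufficient diet throughout, LH mice in the post-weaning period only, HL mice through the dam only, and LL mice were deficient throughout. The study describes its offspring as male and the diets as high in fat, shared by all groups. Each mouse was compared on a 2-colour array with a common reference RNA, and every value below is a log2 ratio of mouse over reference, so that 1 unit is a doubling. A level is the ratio of 1 probe in 1 mouse, and a difference is taken between groups for the same probe, because ratios of different probes cannot be ranked against each other. The deposited record and the paper describe the reference RNA differently, as a pregnant mouse with its foetus or as an intestine and liver pool. Liver arrays covered 5 HH mice, since the labels give 2 of the HH arrays the same animal, and 6 mice of each other group. Colon arrays covered 6 mice of each group, and no animal code occurs in both tissues. The paper, however, allocated 6 male offspring to each group and collected both tissues, so the same mice may have given both. The labels do not pair them. Fits over both tissues treated liver and colon mice as separate, and such a pairing was not modelled. Nothing else in the labels separates cultures or litters. Main fits held no term for the slide that carried an array, so p-values measure the spread between these mice, differences between slides included.

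The proteasome degrades proteins tagged with ubiquitin. Its 20S core is a barrel of alpha rings, which gate the entrance, around beta rings, where Psmb5, Psmb6 and Psmb7 cut the substrate. The 19S cap, made of an ATPase base (*Psmc* genes and some *Psmd* genes) and a lid, binds ubiquitin chains, removes them and unfolds the protein. In immune cells and in cells exposed to interferon, Psmb8, Psmb9 and Psmb10 replace Psmb5, Psmb6 and Psmb7 in new particles, and the PA28 activator of Psme1 and Psme2 opens the gate, which favours peptides for MHC class I. The liver is a tissue of high protein turnover in which the standard particle predominates, whereas the gut wall holds many immune cells.

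Promoter sequences are shown for the catalytic subunits and the subunits that replace them, since they exchange with each other in the particle and the tissue comparison turns on them. Each line gives the 250 bases before the annotated start (RefSeq, GRCm38.p6, read 5′ to 3′ on the strand of the gene). Capitals mark the antioxidant response pattern TGACNNNGC, searched on both strands. It was not found for *Psmb8*, *Psmb9* and *Psmb10*, whose lines hold no capitals.
Psmb5, chr14:54617996-54618245, minus strand: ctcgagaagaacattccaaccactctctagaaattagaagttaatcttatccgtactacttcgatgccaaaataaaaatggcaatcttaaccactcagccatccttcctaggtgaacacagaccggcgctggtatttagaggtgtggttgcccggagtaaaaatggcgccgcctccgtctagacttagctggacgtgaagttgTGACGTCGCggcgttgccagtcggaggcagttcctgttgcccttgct
Psmb8, chr17:34197945-34198194, plus strand: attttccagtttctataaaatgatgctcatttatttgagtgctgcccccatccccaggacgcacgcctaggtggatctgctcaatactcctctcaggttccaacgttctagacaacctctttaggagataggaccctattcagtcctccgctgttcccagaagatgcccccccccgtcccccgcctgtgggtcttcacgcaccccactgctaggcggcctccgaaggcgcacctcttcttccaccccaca
Psmb6, chr11:70525107-70525356, plus strand: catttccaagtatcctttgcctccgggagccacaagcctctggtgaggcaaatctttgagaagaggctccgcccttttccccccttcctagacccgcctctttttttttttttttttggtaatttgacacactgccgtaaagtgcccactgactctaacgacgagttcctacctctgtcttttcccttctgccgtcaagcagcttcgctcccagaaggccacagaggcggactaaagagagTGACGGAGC
Psmb9, chr17:34187331-34187580, minus strand: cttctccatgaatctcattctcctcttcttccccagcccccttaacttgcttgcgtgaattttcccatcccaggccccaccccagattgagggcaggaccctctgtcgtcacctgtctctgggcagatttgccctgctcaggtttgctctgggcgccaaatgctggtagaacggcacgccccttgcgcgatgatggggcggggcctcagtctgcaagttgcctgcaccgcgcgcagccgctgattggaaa
Psmb10, chr8:105938393-105938642, minus strand: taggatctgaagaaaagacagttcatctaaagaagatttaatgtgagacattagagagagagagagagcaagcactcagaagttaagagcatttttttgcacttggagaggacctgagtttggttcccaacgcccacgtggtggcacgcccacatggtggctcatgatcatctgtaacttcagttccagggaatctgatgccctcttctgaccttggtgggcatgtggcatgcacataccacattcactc
Windows of 1 chromosome were left out of the search. Of the 45 genes, 38 had a window in the rest, the others being *Psma8*, *Psmb1*, *Psmb2*, *Psmb7*, *Psmc3*, *Psmd3* and *Psmd7*. The antioxidant response pattern was found for *Psmb5* (47 to 39 bases before the start), *Psmb6* (9 to 1 bases), *Psmc6*, *Psmd9* and *Psmd12*. That is 13.2% of the 38 genes against 10.2% of the 32851 windows searched. The core of the interferon-stimulated response element was found for *Psmb3*, *Psmd4* and *Psmd9*, for 0 of the 5 immunoproteasome genes, and in 2.98% of all windows. The kappa B pattern, which overlaps GC-rich sequence, was found for 55.3% of the 38 genes and in 45.8% of all windows. The CCAAT box was found for 42.1% and in 33.8%. These are letter matches in 1 window per annotated start and were not tested as binding sites.

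The tissue labels were checked against defining markers. All 6 hepatocyte markers measured were higher in liver, all 8 colon epithelium markers and all 5 smooth muscle markers were higher in colon. Spots well above background made up 54.4% to 65.3% of probes on liver arrays and 65.9% to 73% on colon arrays, and 57 of the 63 member probes were above background on all 48 arrays. The exceptions were both probes of *Psmb11*, the thymus subunit, at 0 of 24 liver arrays and 8 and 0 colon arrays, and single probes of *Psma8*, *Psme1*, *Psme2* and *Psme3ip1* on 1 or more arrays. No member spot was saturated. In the colon, 11 of 14 leukocyte markers were higher in LL mouse 4 than in every other colon mouse, including the B cell gene *Ms4a1* at 4.22 against at most 0.15. Xist, which is transcribed in females, had a log2 Cy3 signal over 9 on 7 arrays, 1 of liver and 6 of colon, and results are also given without them. They were HL mouse 2 in liver, and HH mice 1 and 5, HL mouse 5 and LL mice 1, 3 and 5 in colon. None was an LH mouse, so these arrays were not spread evenly over the diets.

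Comparing liver with colon asked how RNA levels of proteasome genes differed between the 2 tissues across all diets. Protein and assembled particles were not measured. Of the 31 core 20S and 19S genes, 16 were called higher in liver and 0 lower, and of the 5 immunoproteasome genes 3 were called lower and 0 higher. With median centring of the arrays, 1 core gene was called higher and 1 lower, and all 5 immunoproteasome genes were called lower. Of the 63 member probes, 24 were called higher in liver (38.1%) and 7 lower (11.1%) by limma, where a call required a change of more than 1.5-fold and an FDR below 0.05. Over all 41171 probes tested, 14.6% were called higher and 15.7% lower. With 1 probe per gene, the median difference was 0.53 over the 45 genes and 0.01 over all probes, and 18 genes were called higher and 5 lower. In these bulk tissues, fewer cells of a type and less RNA per cell cannot be told apart, and each slide held 1 tissue, so that slide and tissue cannot be told apart either.

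**Figure D1:**
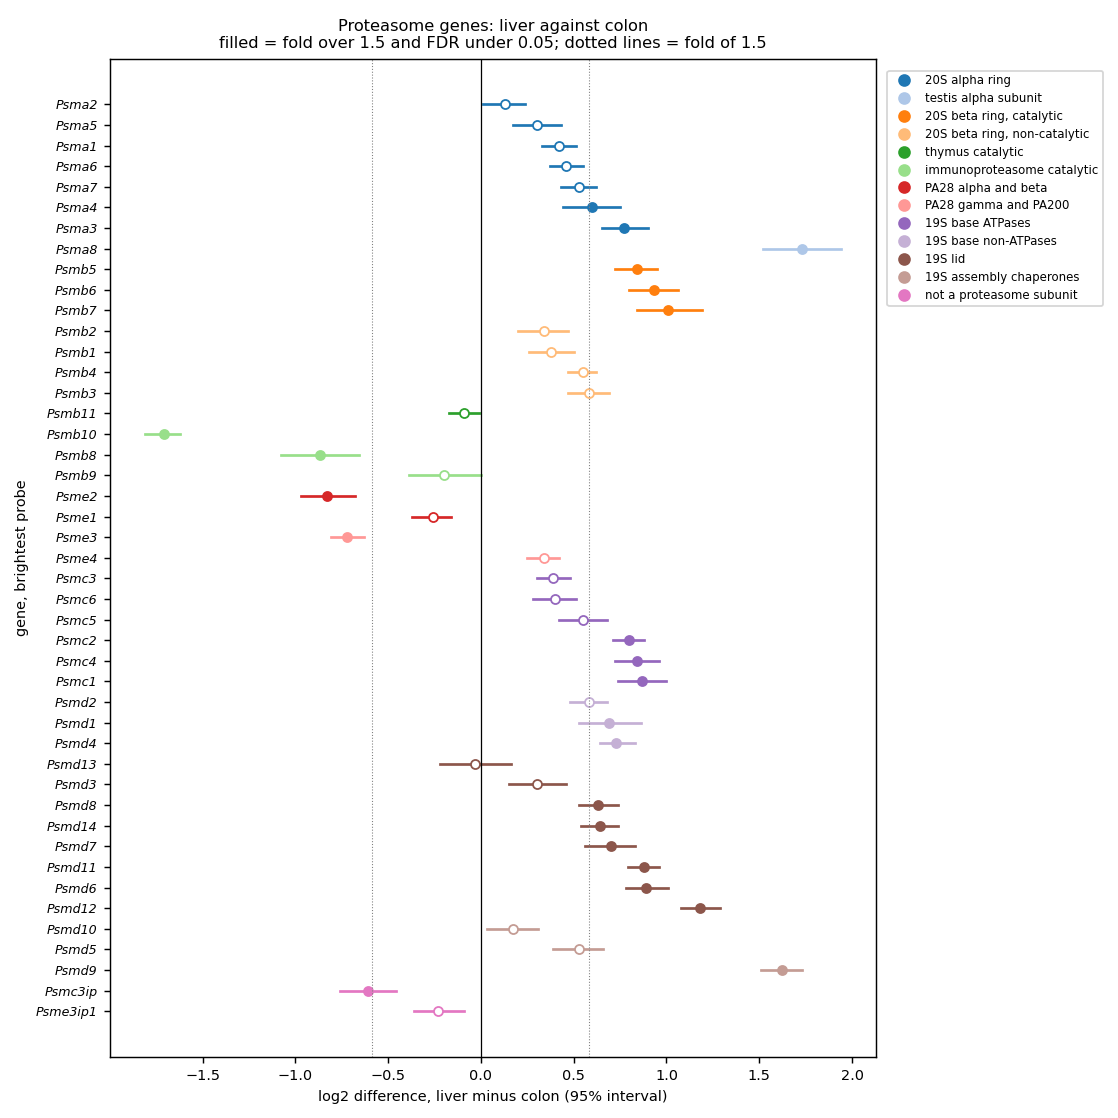
Difference between liver and colon in log2 units for the brightest probe of each of the 45 genes, by role, with 95% intervals from the fit over 23 liver and 24 colon mice. Core 20S and 19S genes lie to the right of 0 except *Psmd13*, and the 5 immunoproteasome genes and *Psme3* lie to the left. With median centring in place of loess, 24 of the 31 core genes lie to the right of 0 and 11 to the right of the median probe.

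All 3 catalytic genes of the standard core were called higher in liver. *Psmb5*, the chymotrypsin-like subunit, ranged from 0.26 to 0.99 in liver (median 0.6, n = 23) and from −0.45 to 0.18 in colon (median −0.2, n = 24). Every liver mouse lay above every colon mouse, and the difference was 0.84 ± 0.06 (SE, adjusted p = 2.65e-17, limma). *Psmb6*, the caspase-like subunit, ranged from 0.26 to 1.22 in liver and from −0.43 to 0.23 in colon, again without overlap, with a difference of 0.93 ± 0.06 (SE). *Psmb7*, the trypsin-like subunit, ranged from −0.15 to 0.7 in liver and from −1.15 to −0.06 in colon. Its ranges overlapped, while its difference of 1.01 ± 0.09 (SE, adjusted p = 2.66e-14, limma) was the largest of the 3.

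The subunits that replace them moved the other way. *Psmb10*, which takes the place of Psmb7, was between −1.51 and −0.91 in liver (median −1.23, n = 23) and between 0.3 and 0.71 in colon (median 0.54, n = 24). No mouse of one tissue reached the range of the other, and the difference was −1.71 ± 0.05 (SE, adjusted p = 1.07e-32, limma), which is 3.28-fold. *Psmb8*, the partner of Psmb5, was between −1.93 and −0.78 in liver and between −1.56 and 0.24 in colon, a difference of −0.87 ± 0.1 (SE, adjusted p = 3.04e-10, limma) with overlapping ranges. *Psmb9*, the partner of Psmb6, did not pass the test. It was between −1.77 and −0.7 in liver and between −1.74 and −0.26 in colon, with a difference of −0.2 (95% interval −0.39 to 0) and an adjusted p of 0.0679 in limma.

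The activators, which cap the 20S core in place of 19S, did not move as 1 group. *Psme2*, the beta subunit of the interferon-induced PA28, was lower in liver without overlap, at −1.2 to −0.62 against −0.41 to 0.61, with a difference of −0.83 ± 0.07 (SE), and its second probe gave −0.68. *Psme1*, the alpha subunit, differed by −0.26 ± 0.05 (SE, adjusted p = 1.19e-05, limma), which is below the fold limit. *Psme3*, or PA28 gamma, is a nuclear activator that is not part of the interferon response. It was also lower in every liver mouse (−2.21 to −1.68) than in any colon mouse (−1.55 to −0.92), with a difference of −0.72 ± 0.05 (SE). *Psme4*, or PA200, had a difference of 0.34 ± 0.04 (SE), and its other probes reached 0.67.

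**Figure D2:**
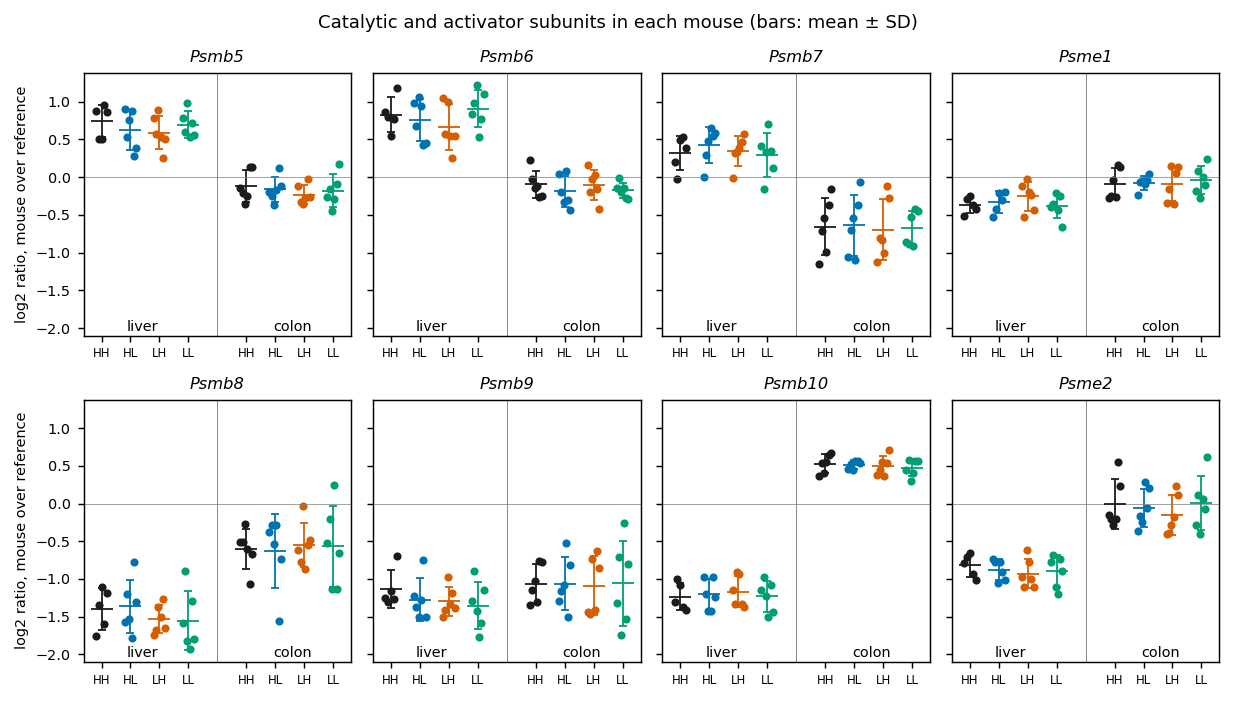
Log2 ratio of mouse over reference for 8 genes in every mouse, by tissue and diet group, with bars for the mean ± SD (5 HH and 6 other mice per liver group, 6 mice per colon group). The tissues separate for *Psmb5*, *Psmb6*, *Psmb10* and *Psme2*, while the 4 diet groups of a tissue overlap for every gene shown.

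Within the alpha ring, all 7 genes had a difference above 0, from 0.13 for *Psma2* to 0.77 for *Psma3*, and 2 of the 7 (*Psma3* and *Psma4*) passed both limits. The 4 non-catalytic beta genes lay between 0.34 (*Psmb2*) and 0.58 (*Psmb3*), below the fold limit. In the 19S cap, 11 of 17 genes were called higher in liver and the median difference was 0.69. The ATPases *Psmc1* (0.87), *Psmc4* (0.84) and *Psmc2* (0.8) were called and *Psmc3*, *Psmc5* and *Psmc6* (0.39 to 0.55) were below the fold limit. In the lid, 6 of 8 genes were called, with *Psmd12* at 1.18 ± 0.05 (SE) and *Psmd14*, the deubiquitinating subunit, at 0.64 ± 0.05 (SE). *Psmd13*, another lid gene, stood apart at −0.03 (95% interval −0.22 to 0.16). *Psmd2*, a scaffold of the base, was 0.58 ± 0.05 (SE), a fold change of 1.49.

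The largest difference among the assembly chaperones belonged to *Psmd9*, which escorts an ATPase pair into the base. Its level was 1.43 to 2.17 in liver and −0.15 to 0.33 in colon, and the difference was 1.62 ± 0.05 (SE, adjusted p = 7.2e-30, limma), with 1.21 on its second probe. *Psmd5* was 0.53 and *Psmd10* was 0.17. *Psma8*, the alpha subunit of testis, had the largest difference of all 45 genes, 1.73 ± 0.1 (SE), on a dim probe that was above background on 24 liver and 23 colon arrays. *Psmc3ip*, which is no subunit, was lower in liver by a difference of −0.61 ± 0.07 (SE). The 3 probes of *Psme3ip1* disagreed, at −0.23, 0.24 and 1.04.

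Mice of the tissues did not overlap for 19 member probes that were higher in liver (30.2%) and 4 that were lower (6.35%). Over all 41174 probes these shares were 11.1% and 12%. The 4 lower probes belonged to *Psmb10*, *Psme2* (both probes) and *Psme3*. All 15 genes with several probes except *Psme3ip1* had the same sign on each probe.

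The scaling of the arrays moved the medians of the core genes and of the immunoproteasome, and median centring removed most core calls. The 5 immunoproteasome genes were lower in liver in all 8 ways of processing the arrays, with a median between −1.16 and −0.82, and 3 to 5 of them were called. The core genes were higher in most settings, with a median of 0.42 to 0.6, but with median centring it fell to 0.19, which is −0.02 relative to the median of all probes. That setting alone shifted the median of all probes by over 0.1, to 0.22, and it left 1 core gene called higher and 1 lower of 31. *Psmb5*, *Psmb6* and *Psmb7* stayed above 0 there, at 0.4, 0.55 and 0.49, without reaching the fold limit. Without the 7 mice with *Xist*, 17 core genes were called higher and 3 immunoproteasome genes lower, and without these and LL liver mouse 6 the counts were 16 and 3.

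**Figure D3:**
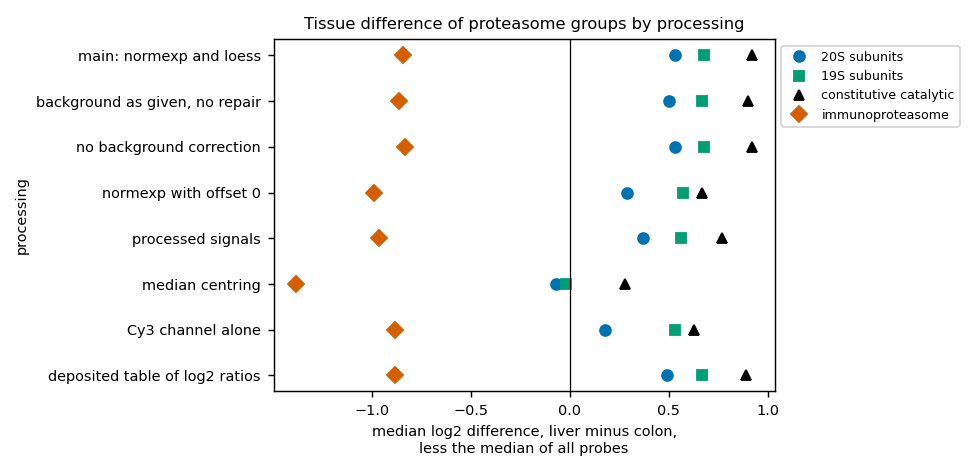
Median difference between liver and colon in log2 units, less the median of all probes, for 14 core 20S genes, 17 core 19S genes, the 3 constitutive catalytic genes and the 5 immunoproteasome genes, under 8 ways of processing the same arrays. The immunoproteasome lies below 0 in each, and the 20S and 19S groups lie above 0 except with median centring, where they are at −0.07 and −0.02.

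The gene lists in this paragraph were read with the loess processing only, where 14.6% of all probes were called higher in liver and 15.7% lower. Among partners of the proteasome whose symbols do not match the rule, 8 of 24 genes measured were called higher in liver and 0 lower, with a median of 0.4. They were the ubiquitin receptors *Adrm1* (1.27) and *Rad23b* (1.46), *Txnl1* (0.96), the deubiquitinase *Usp14* (0.88), the ligase *Ube3c* (0.61), and the core assembly factors *Psmg1* (0.79), *Pomp* (0.67) and *Psmg3* (0.61). Among 16 genes of antigen presentation and interferon response, 5 were called lower in liver and 2 higher. The lower ones included the transcription factors *Irf8* (−1.91) and *Irf1* (−1.58), the interferon targets *Ifit1* (−1.58) and *Gbp2* (−1.07) and the peptide loading gene *Tapbp* (−1.06), and the higher ones were *Cxcl9* (1.26) and *B2m* (0.82). Leukocyte markers moved with the immunoproteasome. Of 14 measured, 7 were called lower in liver, such as *Ptprc* (−1.17), *Cd74* (−1.21) and *H2-Aa* (−1.5), and *Cd3e* was called higher (1.89). Their mean level ranged from −0.57 to 0.15 in liver and from −0.3 to 1.54 in colon, and 12 of the 14 were above background on all liver arrays. Their part in the immunoproteasome difference was not tested.

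Comparing LH with HH asked what a dam deficient in Se and folate meant for offspring fed a sufficient diet. No member probe passed the limits in liver (0 of 63, against 0% of 41171 probes, limma). At an unadjusted p under 0.05, 8 member probes were higher (12.7%) and 2 lower (3.17%), against 5.85% and 6.14% of all probes. With 1 probe per gene, 2 of 45 genes were higher and 2 lower at this p, the median difference was 0.03, and the median over all probes was −0.01.

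The 2 lower genes belong to the alpha ring. *Psma7* was 0.35, 0.28, 0.2, 0.37 and 0.51 in the 5 HH mice and −0.16, 0.2, −0.35, 0.05, −0.29 and 0.18 in the 6 LH mice. The lowest HH mouse and the highest LH mouse had the same value at this precision, and the difference of −0.4 ± 0.12 (SE) had an adjusted p of 0.241 in limma. *Psma2* was −0.04, 0.13, −0.12, 0.26 and 0.38 in HH and −0.38, 0.06, −0.54, −0.16, −0.23 and 0.09 in LH, with more overlap, and its difference was −0.32 ± 0.13 (SE, adjusted p = 0.331, limma). On the 6 slides, each holding 1 array of each group, *Psma7* was lower in LH on 6 and *Psma2* on 5, although slides 3 and 6 carried the same HH mouse, so that these and the other slide counts in liver rest on 5 HH mice.

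The higher genes were *Psmd2*, a scaffold of the 19S base, and *Psmd5*, a chaperone of base assembly. *Psmd2* was −0.18, −0.08, −0.16, 0.02 and 0.29 in HH and 0.2, 0.44, 0.19, 0.15, 0.38 and 0.58 in LH. Only the highest HH mouse reached the LH range, and the difference was 0.35 ± 0.12 (SE, adjusted p = 0.274, limma). On its second, dimmer probe *Psmd2* was −0.63, −0.53, 0.05, −0.62 and −0.32 in HH and −0.16, 0.62, 0.17, 0.08, 0.67 and 0.88 in LH, a difference of 0.79 ± 0.26 (SE, adjusted p = 0.264, limma). Both probes were higher in LH on 6 of 6 slides, which hold 5 HH mice. *Psmd5* had a difference of 0.25 ± 0.11 (SE, adjusted p = 0.354, limma). Intervals were too wide to lie within a fold change of 1.5 for *Psma7*, *Psmd2*, *Psmb1*, *Psmd3*, *Psmd13* and the dim *Psma8*, whose interval reached −0.94.

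Of the 8 probes with an unadjusted p under 0.05 and a higher value in LH, 6 were the dimmer probe of a gene with several. They belonged to *Psme4* (2 probes, 0.34 and 0.36), *Psmd2*, *Psmc5* (0.54), *Psmd12* (0.51) and *Psmd14* (0.38). The brightest probes of *Psmc5*, *Psmd12* and *Psmd14* gave −0.01, 0.02 and −0.01, so that probes of these genes disagreed. For *Psmc5*, an ATPase of the base, the dimmer probe was −0.12 to 0.43 in HH and 0.48 to 1.02 in LH, and it was the only member probe whose LH and HH mice did not overlap. That is 1.59% of member probes higher and 0% lower, against 0.7% and 0.843% of all probes.

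**Figure D4:**
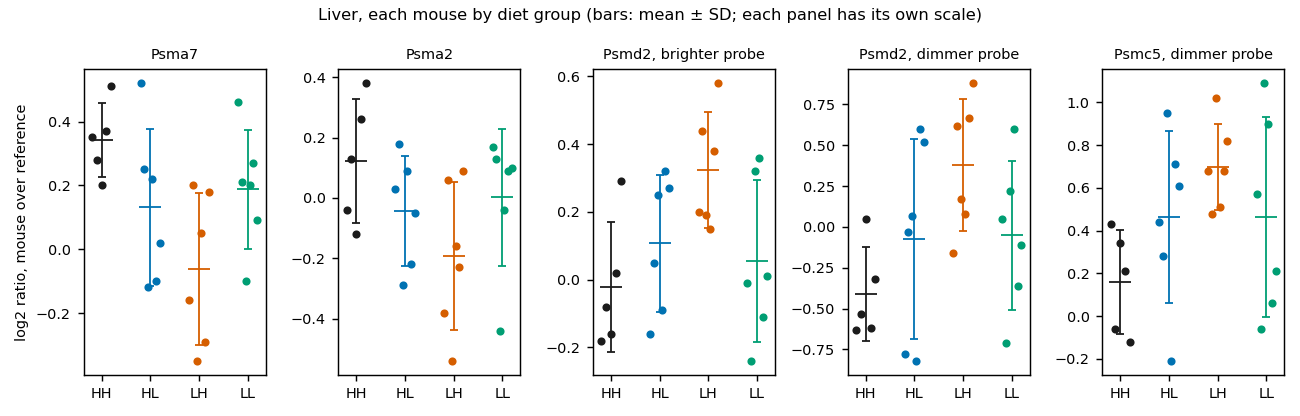
Log2 ratio of mouse over reference in liver for *Psma7*, *Psma2*, both probes of *Psmd2* and the dimmer probe of *Psmc5*, 1 point per mouse, with bars for the mean ± SD of each diet group (5 HH and 6 other mice). LH mice lie low for *Psma7* and high for *Psmd2*, with at least 1 HH mouse inside or at the edge of the LH range, and do not overlap HH for *Psmc5*.

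The immunoproteasome gave no such values. In LH minus HH its 5 genes lay between −0.16 (*Psmb9*) and 0.12 (*Psme1*) in liver, with the lowest adjusted p at 0.645, and every 95% interval lay between −0.51 and 0.32. *Psmb8* was −1.75 to −1.1 in HH liver and −1.74 to −1.27 in LH liver. Leukocyte markers had a mean level of −0.29 to 0.15 in HH liver and −0.57 to −0.18 in LH liver, and 4 of 14 had an unadjusted p under 0.05, all lower in LH. The standard catalytic genes *Psmb5*, *Psmb6* and *Psmb7* differed by −0.16, −0.17 and 0.03.

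Among the 24 partners, *Vcp*, the segregase that delivers substrates, had a difference of 0.4 (adjusted p = 0.224, limma), *Psmg4* −0.41 and *Psmg3* −0.24, and none was called. Of the 16 antigen presentation and interferon genes, *Tap2* had the lowest p, with a difference of 0.25 (adjusted p = 0.363, limma).

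**Figure D5:**
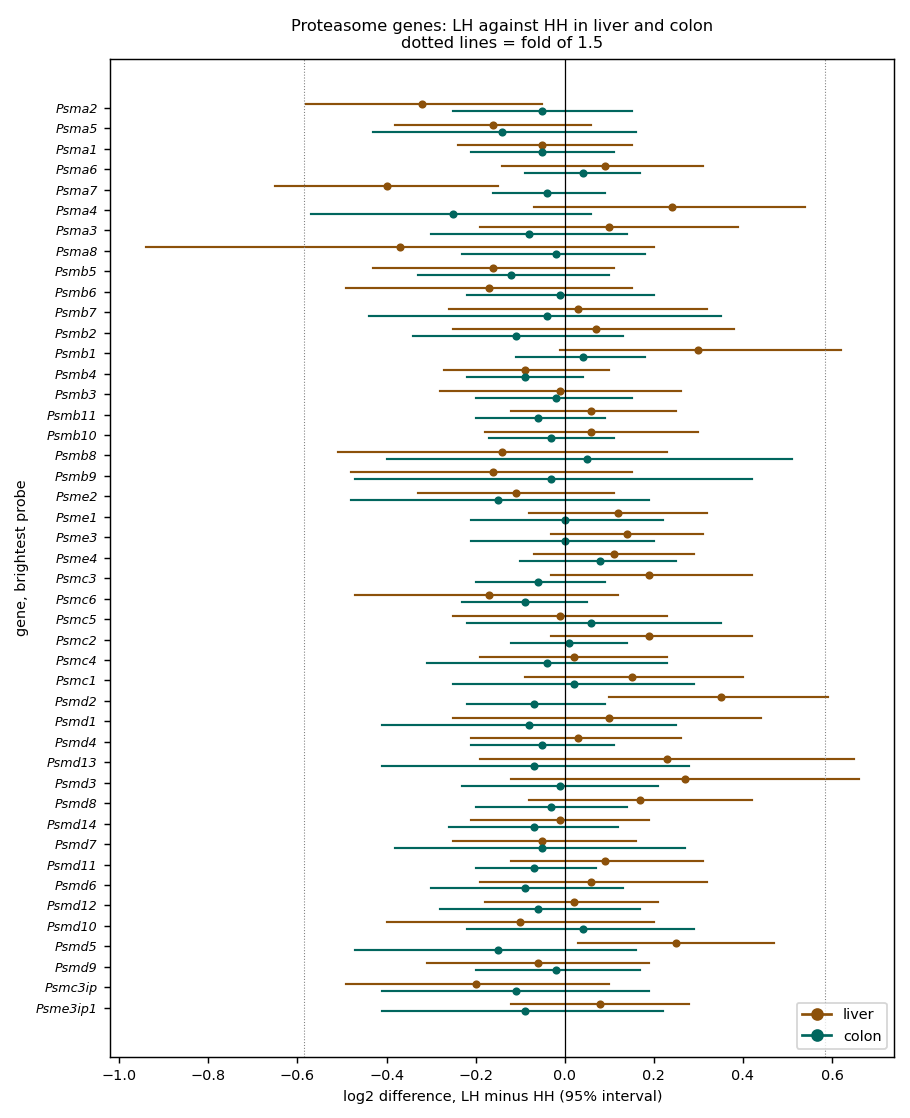
Difference between LH and HH in log2 units for the brightest probe of each of the 45 genes, with 95% intervals, in liver and in colon. In colon every interval lies within a fold change of 1.5, and in liver 39 of 45 do.

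The other comparisons with HH in liver gave smaller values, and 0 members passed (0% of all probes in each). For HL minus HH, 1 member probe was higher and 0 lower at an unadjusted p under 0.05, against 2.14% and 2.24% of all probes. It was a dimmer probe of *Psme4* (0.26). By the brightest probe, the genes with the lowest p were *Psma7* (−0.21 ± 0.12, SE), *Psma6* (0.18 ± 0.11) and *Psmc3ip* (−0.18 ± 0.14), with adjusted p of 0.952 in limma. For LL minus HH, 2 member probes were higher and 0 lower, against 1.25% and 2.2%. They were dimmer probes of *Psme4* (0.25) and *Psmd12* (0.48). By the brightest probe no gene reached that p, and the lowest p belonged to *Psmc2* (0.2 ± 0.11, SE), *Psmd5* (0.16 ± 0.11) and *Psmb9* (−0.22 ± 0.15). The remaining pairs, the dam diet, offspring diet and interaction contrasts also called 0 members and 0% of all probes. In the dam diet contrast, which sets pups of deficient dams against pups of sufficient dams, *Psma7* was −0.17, *Psmc2* 0.16 and *Psmd11* 0.14, each with an adjusted p of 0.999 in limma. In the offspring diet contrast *Psma6* and *Psma3* were 0.1 and *Psmd9* 0.08. In the interaction, *Psma7* was 0.46 (adjusted p = 0.336, limma) and *Psmd2* −0.4 (adjusted p = 0.368, limma). The group means of *Psma7* were 0.34 in HH, 0.13 in HL, −0.06 in LH and 0.19 in LL, and those of *Psmd2* were −0.02, 0.11, 0.32 and 0.05.

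In the colon no member probe passed the limits in any of the 9 contrasts (0% of 41173 probes), and 0 of 63 had an unadjusted p under 0.05 in any comparison with HH. The shares of all probes at that p were 1.89% higher and 1.35% lower for LH, 0.668% and 0.794% for HL, and 0.692% and 1.03% for LL. With slide as a replicate block, 3 member probes had such a p for LH minus HH, 2 for HL minus HH and 0 for LL minus HH, and 0 were called. The share of all probes at that p was not counted in this fit. Within slides, *Psma4*, *Psmd11* and the second probe of *Psme2* were lower in LH than in HH on 6 of 6, with median differences of −0.24, −0.06 and −0.2. For *Psmd11*, mouse 6 was −0.34 in HH and −0.35 in LH. These are 3 of 63 member probes, and the share of all probes lower on 6 of 6 slides was not counted. The lowest p for LH minus HH belonged to *Psma4* (−0.25 ± 0.15, SE), *Psmb4* (−0.09 ± 0.06) and *Psmc6* (−0.09 ± 0.07). For HL minus HH they were *Psmc3ip* (−0.19), *Psmc2* (0.08) and *Psmb3* (−0.11), and for LL minus HH *Psma6* (0.1), *Psmb3* (−0.08) and *Psmd11* (0.06). In the dam diet contrast *Psma4* was −0.15, *Psmb4* −0.06 and *Psmd2* −0.06, and in the offspring diet contrast *Psmd11* was 0.09, *Psmb3* −0.08 and *Psmd2* 0.07. All 45 intervals of each pairwise colon comparison lay within a fold change of 1.5, and in liver 44 of 45 did for each pair but LH minus HH, the exception being *Psma8*. For the immunoproteasome in LL minus HH colon, the median difference was 0.01, and 0.31 without the mice with *Xist*, a set that still holds LL mouse 4. That mouse had the highest *Psmb8* (0.24) and *Psmb9* (−0.26) of all colon mice. Its *Psmb10* (0.41), *Psme1* (0) and *Psme2* (0.06) lay below the highest colon values of 0.71, 0.24 and 0.61. It also had the highest leukocyte mean (1.54), whose part in the value of 0.31 was not tested. In the colon interaction contrast, 38 of 45 intervals lay within this limit.

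Whether the LH minus HH difference itself differed between tissues was tested in the fit of all 8 groups. No member passed (0% of probes). *Psmd2* had the lowest p, with a difference of 0.41 ± 0.14 (SE, adjusted p = 0.607, limma), followed by *Psma7* (−0.37 ± 0.13, SE) and *Psma4* (0.49 ± 0.22, SE).

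For the median member gene, slides accounted for more of the spread among mice than diets did. A split into 6 slides takes up more of the spread by chance than a split into 4 diets. In colon, a median of 70% of the sum of squares of a member gene lay between the 6 slides and 4.36% between the 4 diets, against 40.4% and 7.31% over all probes. In liver the shares were 34.1% and 8.93% for member genes and 27.9% and 11.3% for all probes. Some liver genes went the other way, such as *Psma7* (29.4% between slides, 34.6% between diets) and *Psmd2* (14.6% and 35.6%). *Psmc1* and *Psmc5* had 89.2% between colon slides, with slide means of *Psmc1* from −0.53 to −0.01. *Psme2* had 61.7%, with slide means from −0.31 to 0.29. Every slide held 1 array of each diet group, so that in colon the comparison of diets is balanced over slides. In liver it is not fully balanced, because the HH arrays of the same animal, on different slides, were averaged as 1 mouse. Their slides therefore count less in the HH mean than in the means of the other diet groups, and slide differences can enter the liver comparisons with HH.

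Around the means of their diet groups, subunits varied together in part. In liver the mean Pearson correlation over 23 mice was 0.35 among the 136 pairs of 19S genes, 0.08 among the 91 pairs of 20S genes and 0.5 among the 6 pairs of 4 immunoproteasome genes, *Psme1* being absent on 1 array. Pairs of a core gene and an immunoproteasome gene had a mean of −0.22, and all pairs of probes 0.01. In colon, over 24 mice, the 10 immunoproteasome pairs had a mean of 0.47, against 0.03 for core pairs, −0.06 for mixed pairs and 0 for all probes. Immunoproteasome genes and the 16 antigen presentation and interferon genes had a mean of 0.33 in liver and 0.39 in colon. These are descriptions, since the mice share slides, and core pairs in colon ran from −0.88 to 0.96.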

How the data were processed

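RNA of liver and colon was hybridised by the authors (Cy3) against a common reference (Cy5) on 48 Agilent arrays of 12 slides, without dye swap. The deposited scanner files (Feature Extraction 10.10.1.1) hold spot and background intensity per channel. The deposited series table holds the log2 ratio of the authors (limma, R 3.0.2) with the opposite sign, r −1 to −0.9997. Here, intensities were corrected with normexp (offset 50) after repair of background values, normalised by loess within arrays and turned to mouse over reference (limma 3.58.1, R 4.3.3). Control and outlier spots were left out and probes averaged. For each gene the brightest probe represents the gene. Tests were limma fits over all probes of a tissue, or of both tissues for tissue comparisons, with Benjamini-Hochberg adjustment, and a call required more than 1.5-fold change at an FDR below 0.05. The precision of an array value is limited by the number of arrays. The HH liver arrays 3 and 6, of 1 animal, had deviations correlated at 0.805 against at most 0.261 for other pairs, and their mean counted as 1 mouse. Fits were tested on simulated data in which arrays were independent and slides had no effect, unlike the real arrays. Named were the immunoproteasome and catalytic genes, *Psmd2* (listed by the study), the 3 genes with the lowest p per diet comparison and the 5 largest tissue differences each way; further genes were named after their values were seen. Members and lists were chosen with earlier results of these data known.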

Additional observations from a re-analysis of the deposited data

Results flagged for a closer look

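In 12 of 200 groups of 5 or 6 mice, over 25 named genes, 1 mouse lay far from the others by Dixon's criterion. Chance flags about 1 in 20 groups. In liver, *Psmb9* was −0.7 in HH mouse 5 (next −1.16) and −0.75 in HL mouse 5 (next −1.23). *Psma2* was −0.44 in LL mouse 3 (next −0.04) and *Psma4* was −0.24 in LL mouse 2 (next 0.25). *Psmc2* was 0.03 in HL mouse 4 (next 0.49), and *Psmd12* was 0.23 in the HH mouse measured on arrays 3 and 6 (next 0.58).

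In colon, *Psmb8* was −1.56 in HL mouse 5 (next −0.74), *Psmd9* was −0.15 in HL mouse 4 (next 0.1) and *Psma6* was −0.27 in HL mouse 3 (next −0.42). *Psma2* was −0.39 in LH mouse 6 (next −0.14), *Psmc6* was −0.88 in LH mouse 3 (next −0.53) and *Psma7* was −0.5 in LL mouse 2 (next −0.34).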

How the results depend on the processing

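In the 19 diet comparisons, 0 members were called under any of the 39 to 64 settings run, leave-one-out included. Over all probes, up to 18 were called for LH minus HH in liver (fit of these groups only), 499 for the liver interaction (array weights) and 11 for LH minus HH between tissues (array weights). With slide as a replicate block, 0 members were called in each. Member probes with an unadjusted p under 0.05 numbered 12 (LH minus HH liver), 7 (liver interaction), 3 (LH minus HH colon) and 13 (LH minus HH between tissues). The share of all probes at that p was not counted in this fit, so these counts cannot be read as high or low. Same-slide deviations correlated at −0.32 to 0.67 in liver and 0.09 to 0.72 in colon. For liver minus colon no fixed block could be fitted, since each slide held 1 tissue. There, 31 member probes were called, 18 with median centring and 60 without a fold limit. The median over all member genes (0.53) was 0.35 with normexp offset 0, 0.43 with processed signals, 0.09 with median centring and 0.22 with Cy3 alone, and the immunoproteasome median (−0.83) was −1.16 with median centring. Median centring also moved the median to 0.15 (HL minus HH liver), 0.18 (LL minus HH liver), −0.11 (LH minus HH colon) and 0.08 (HL minus HH colon). The immunoproteasome median of LL minus HH colon (0.01) was −0.05 to 0.1 with 1 mouse left out, 0.31 without the mice with *Xist*, and 0.31 also without LL liver mouse 6, a setting chosen after seeing the data. *Psmc3ip* in HL minus HH liver was −0.18, and 0.05 without background repair. The cause was not tested. Of 2055 values of named genes, 2033 kept direction and side of the threshold, 7 lost and 14 gained it, and 1 reversed.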

Other observations

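The 2 CD3 chains, which form 1 receptor complex on T cells, went opposite ways between the tissues. *Cd3d* was lower in liver (−0.92) and *Cd3e* higher (1.89), with *Cd3e* at 0.98 to 2.16 in liver and −0.44 to −0.01 in colon. Over the 18 member probes that were the dimmer probe of their gene, LH minus HH in liver had a median of 0.11 and 12 were above 0, against a median of 0.03 and 26 of 45 for the brightest probes. These are counts over probes chosen with their values known.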
